A study of Mus musculus with 6 samples.

Results

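The interferon regulatory factors (IRFs) are a family of transcription factors, and 8 of their genes, Irf1, Irf2, Irf3, Irf4, Irf5, Irf7, Irf8 and Irf9, were picked by symbol from tables of 17067 genes. Each was listed once in every table, and all 8 passed the filter on low values. RNA was measured in colon macrophages, gated for CD45+CD11b+F4/80+, of C57BL/6 mice aged 10 weeks, all with colitis from dextran sulfate sodium (DSS). The groups were 3 samples of wild-type (WT) mice and 3 of Gsdmd-/- mice, which carry a disrupted gene for gasdermin D, a protein that forms pores in cell membranes. The labels neither describe how the allele was made nor limit it to a cell type. Because they name no separate mice within a group, the p-values given here measure the spread among samples only, and that spread may be technical.

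IRF proteins share an amino-terminal DNA-binding domain and bind interferon-stimulated response elements (ISREs), which hold repeats of GAAA. IRF3 and IRF7 are phosphorylated by the kinases TBK1 and IKK-epsilon once nucleic acids or bacterial products are sensed, and then switch on type I interferon genes; IRF9 is the DNA-binding part of ISGF3, the complex through which type I interferon acts. IRF1 is induced by interferon gamma, IRF2 can compete with it for DNA, IRF5 drives inflammatory cytokine genes below Toll-like receptors, IRF8 works with PU.1 in monocytes and macrophages, and IRF4 is tied to alternative macrophage activation and to lymphocytes.

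Promoters of 6 members are printed because they hold elements through which interferon signals can reach IRF genes (Irf1, Irf8, Irf2) or because the member had one of the largest changes (Irf7, Irf4, Irf3). The windows, from RefSeq on build GRCm38.p6, run from 250 bases before to 50 bases after an annotated start site. Capitals mark 3 motifs, searched on both strands: the ISRE core (GAAA, then NN, then GAAA), the gamma-activated site GAS, written TTCNNNGAA, and the TATA box TATAAA. No match overlapped another. The motifs and the windows shown were picked after the sequences and the values had been seen.
Irf1, chr11:53769764-53770063, plus strand: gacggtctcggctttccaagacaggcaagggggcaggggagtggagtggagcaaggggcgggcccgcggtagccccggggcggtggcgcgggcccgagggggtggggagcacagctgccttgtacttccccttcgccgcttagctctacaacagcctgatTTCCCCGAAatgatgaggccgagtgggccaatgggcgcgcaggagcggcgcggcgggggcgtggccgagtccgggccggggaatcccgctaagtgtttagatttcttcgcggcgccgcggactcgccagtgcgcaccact
Irf8, chr8:120736108-120736407, plus strand: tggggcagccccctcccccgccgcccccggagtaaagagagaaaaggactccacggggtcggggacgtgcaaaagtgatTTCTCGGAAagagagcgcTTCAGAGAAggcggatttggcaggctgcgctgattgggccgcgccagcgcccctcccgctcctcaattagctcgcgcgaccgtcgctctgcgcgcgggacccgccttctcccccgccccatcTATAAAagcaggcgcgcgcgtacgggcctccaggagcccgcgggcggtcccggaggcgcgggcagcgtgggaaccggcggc
Irf2, chr8:46739495-46739794, plus strand: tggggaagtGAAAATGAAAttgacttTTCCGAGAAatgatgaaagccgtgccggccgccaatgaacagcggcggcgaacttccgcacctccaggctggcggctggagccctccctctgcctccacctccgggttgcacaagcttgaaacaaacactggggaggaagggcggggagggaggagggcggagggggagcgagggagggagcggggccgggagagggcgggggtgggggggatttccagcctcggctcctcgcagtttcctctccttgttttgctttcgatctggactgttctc
Irf7, chr7:141266375-141266674, minus strand: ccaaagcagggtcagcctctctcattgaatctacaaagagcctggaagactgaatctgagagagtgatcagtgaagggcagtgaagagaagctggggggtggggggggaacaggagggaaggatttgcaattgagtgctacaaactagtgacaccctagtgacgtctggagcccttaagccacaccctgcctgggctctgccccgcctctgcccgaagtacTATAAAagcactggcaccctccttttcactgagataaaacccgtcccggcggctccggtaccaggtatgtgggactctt
Irf4, chr13:30748983-30749282, plus strand: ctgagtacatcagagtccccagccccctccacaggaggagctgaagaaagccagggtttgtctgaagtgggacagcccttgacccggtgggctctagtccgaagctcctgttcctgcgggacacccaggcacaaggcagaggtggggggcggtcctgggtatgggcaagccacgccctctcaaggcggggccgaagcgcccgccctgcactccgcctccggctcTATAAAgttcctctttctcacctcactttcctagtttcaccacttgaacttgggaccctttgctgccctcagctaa
Irf3, chr7:44997398-44997697, plus strand: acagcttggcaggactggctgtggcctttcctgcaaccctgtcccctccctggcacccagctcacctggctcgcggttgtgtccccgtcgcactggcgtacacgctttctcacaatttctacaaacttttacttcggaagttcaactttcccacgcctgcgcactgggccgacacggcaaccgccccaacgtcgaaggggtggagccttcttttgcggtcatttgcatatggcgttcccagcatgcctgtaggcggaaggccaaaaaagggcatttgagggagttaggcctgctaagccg

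The GAS matches began at position -90 from the start site in Irf1, at -171 and -153 in Irf8 and at -224 in Irf2, whose ISRE core match began at -241. TATA boxes began at -29 in Irf7, -26 in Irf4 and -31 in Irf8. Of 11 windows of the 8 genes, 3 held GAS, 3 a TATA box and 1 an ISRE core. Among 32851 windows of the RefSeq table, 8.3% held GAS, 13.6% a TATA box and 3.44% an ISRE core. The printed Irf3 window held none of the 3, and a match describes letters, not binding.

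Levels are given in FPKM, fragments per kilobase of transcript and per 1 M mapped fragments, from libraries of an estimated 19.96 to 20.46 M fragments. Between libraries of one group the correlation across 10005 tested genes was 0.997 to 0.9981, and between groups it was 0.9671 to 0.9753 (genes are not independent replicates). All values of a library summed to 476271 to 485411 in WT and to 551502 to 565388 in Gsdmd-/-, so a rescaling of each library to one total (TPM) lowers Gsdmd-/- values relative to WT. Over all tested genes the median log2 change was -0.17 in TPM, against 0.03 before rescaling. Log2 changes followed transcript length (Spearman rho -0.652) and GC content (rho 0.497) across 9852 genes, and a smooth trend on both held 50.7% of their variance. Changes after this trend was taken out, called length-adjusted here, are therefore set beside the deposited ones. Gsdmd, the disrupted gene, read 97.65, 99.35 and 97.35 FPKM in WT against 28.47, 28.99 and 29.69 FPKM in Gsdmd-/- samples.

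The 8 macrophage markers were all tested, and 2 rose and 5 fell, where 77.5% of all tested genes passed in either direction. Ptprc, Itgam and Adgre1, the genes of the antigens used for gating, had log2 changes of -0.67, -0.94 and -0.43. Length-adjusted they were at -0.22, -0.71 and -0.33. The 2 that rose, Cd68 and Fcgr1, were at 0.33 and 0.35 as deposited and at -0.11 and 0.24 length-adjusted. Cx3cr1 reached only 1.18 to 1.51 FPKM. Whether the gated cells differed between the groups was not tested. Other colon cells also use IRF genes. All 5 B cell markers stayed under 1 FPKM. Of 4 plasmacytoid dendritic cell markers, Siglech and Ccr9 stayed under 1 FPKM, and the list summed to 487 to 516 FPKM in WT and 691 to 730 FPKM in Gsdmd-/- samples through Bst2, also an interferon-induced gene (453 ± 15.3 and 676 ± 21.9 FPKM), and Tcf4 (44.2 ± 0.569 and 38.8 ± 1.47 FPKM; SD, n = 3 each). Of 4 T cell markers, 3 stayed under 1 FPKM, and the sum was 1.61 to 1.88 FPKM in WT and 2.6 to 2.74 FPKM in Gsdmd-/- samples, mostly Cd4, which rose by 0.52 (limma adjusted p = 2.34e-05). Of 4 plasma cell markers, 3 stayed under 1 FPKM, and Sdc1 was at 19.4 FPKM on average in both groups. Flt3, Zbtb46 and Clec9a of conventional dendritic cells stayed under 1 FPKM. The 5 conventional dendritic cell markers summed to 3.27 to 3.82 FPKM in WT and 3.63 to 3.97 FPKM in Gsdmd-/- samples. All 4 fibroblast markers rose, from sums of 14 to 15 FPKM in WT to 34.4 to 36.1 FPKM in Gsdmd-/- samples, and the part of these cell types in the IRF levels was not tested. In bulk samples fewer cells of a type and less RNA per cell cannot be told apart.

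Macrophage samples of Gsdmd-/- mice had more Irf3 and Irf7 RNA and less Irf2, Irf4 and Irf5 RNA than those of WT mice. These 5 directions held on all 5 scales plotted. As deposited, Irf3, Irf7 and Irf8 rose and Irf2, Irf4 and Irf5 fell, at an adjusted p under 0.05 in limma with Benjamini-Hochberg adjustment over all 10005 genes. Of all tested genes 77.5% passed, 40.6% higher and 36.9% lower, so 6 of 8 IRF genes is near the background. The median log2 change was 0.03 over the 8 genes and 0.03 over all tested genes. WT and Gsdmd-/- samples did not overlap for 7 of the 8 genes, beside 79.4% of all tested genes.

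**Figure D1:**
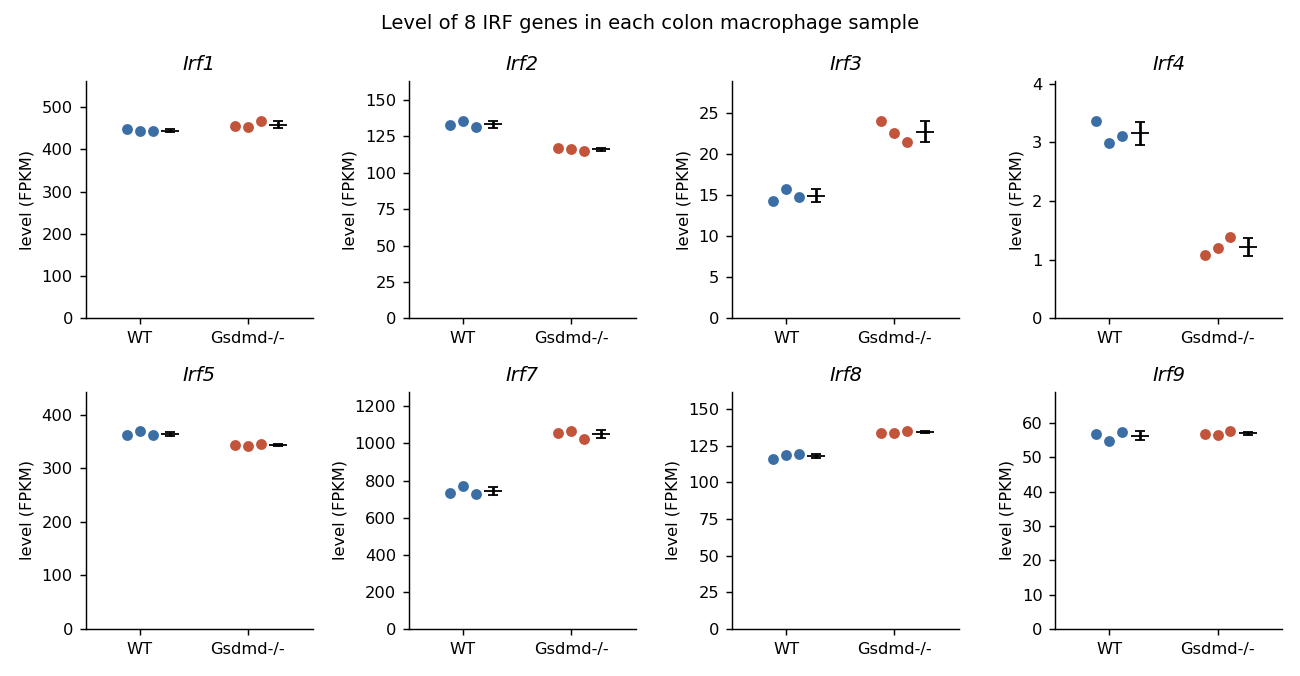
Level of each IRF gene in FPKM (vertical axes, each from 0) in 3 WT samples (blue) and 3 Gsdmd-/- samples (red), with the group mean and SD in black. Gsdmd-/- samples lie above every WT sample for Irf3 and Irf7 and below every WT sample for Irf2, Irf4 and Irf5, while the groups overlap for Irf9.

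Irf7 (chromosome 7, 141263183 to 141266499) had the highest level of the family, and 99.2% of tested genes had a lower level in WT. WT samples read 731, 769 and 728 FPKM, and Gsdmd-/- samples 1057, 1065 and 1025 FPKM. Every Gsdmd-/- sample was above every WT sample. The mean rose from 743 ± 22.8 to 1049 ± 21.1 FPKM (SD, n = 3 each), a log2 change of 0.50 on the log2(FPKM + 1) scale (SE 0.0278, limma adjusted p = 1.64e-08). The rise was smaller on other scales, at 0.28 in TPM, 0.22 length-adjusted and 0.08 after quantile normalization (limma adjusted p = 2.15e-08, 2.3e-06 and 0.00746).

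Irf3 (chromosome 7, 44997648 to 45002848) is made without prior stimulation in most cells and had the largest rise of the family as deposited. WT samples read 14.2, 15.7 and 14.7 FPKM, and Gsdmd-/- samples 24.0, 22.5 and 21.5 FPKM. The lowest Gsdmd-/- sample stood above the highest WT sample. The mean rose from 14.9 ± 0.769 to 22.7 ± 1.28 FPKM (SD, n = 3 each), a log2 change of 0.57 (SE 0.0532, limma adjusted p = 1.02e-06). It was 0.37 in TPM and 0.23 length-adjusted (limma adjusted p = 1.32e-05 and 0.00121), and 0.16 when the length adjustment used the median transcript in place of the longest (limma adjusted p = 0.00949). The neighbouring gene Bcl2l12 lies 10 bases from Irf3 in RefSeq and rose by 0.62 as deposited, but was at 0.04 length-adjusted (limma adjusted p = 7.58e-06 and 0.639). Scaf1, 98 bases away on the other side, rose by 0.23 as deposited, but was at 0.03 in TPM (limma adjusted p = 0.00127 and 0.667). Bcl2l12 still passed as higher in TPM, and Scaf1 still passed as higher length-adjusted. Whether reads were assigned by strand is not known from the labels.

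Irf4 (chromosome 13, 30749233 to 30766981) showed the largest change at the lowest level. WT samples read 3.37, 2.98 and 3.11 FPKM, and Gsdmd-/- samples 1.08, 1.2 and 1.38 FPKM. The groups were far apart, with the Gsdmd-/- mean, 1.22 ± 0.151 FPKM, at 0.387 of the WT mean, 3.15 ± 0.199 FPKM (SD, n = 3 each). The log2 change was -0.90 (SE 0.0754, limma adjusted p = 4.13e-07), and -1.37 at a pseudocount of 0.01, since a pseudocount of 1 shrinks changes of low genes. It was -1.25 in TPM, -0.63 length-adjusted, and -0.51 with the median transcript (limma adjusted p = 4.6e-05). These levels stand for an estimated 103 to 325 fragments, with a counting CV of 9.84% at the lowest. Of all tested genes 4.47% had a larger absolute change.

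Irf5 (chromosome 6, 29526130 to 29541869) read 362, 369 and 363 FPKM in WT samples, and 343, 342 and 345 FPKM in those of Gsdmd-/- mice. The shift was narrow, with no overlap. The log2 change was -0.09 (SE 0.0239, limma adjusted p = 0.00502), and it was larger in TPM at -0.31 and length-adjusted at -0.37 (limma adjusted p = 1.97e-08 and 5.48e-08). Irf5 did not pass in limma without its trend and robust settings, where the adjusted p was 0.05. In RefSeq the gene shares 1043 bases with Tnpo3, whose log2 change was -0.10 as deposited and 0.13 length-adjusted (limma adjusted p = 0.0681 and 0.0195).

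Irf2 (chromosome 8, 46739745 to 46847458) read 133, 136 and 131 FPKM in WT samples and 117, 116 and 115 FPKM in Gsdmd-/- samples. Each Gsdmd-/- sample was lower than any WT sample. The log2 change was -0.20 (SE 0.0277, limma adjusted p = 3.67e-05), -0.20 length-adjusted, -0.34 with the median transcript and -0.42 in TPM. IRF2 is known to drive transcription of Gsdmd, but here Gsdmd is the disrupted gene, so an effect of the allele on its level and one of IRF2 cannot be told apart.

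The remaining 3 members had calls that depended on the scale. Irf8 (chromosome 8, 120736358 to 120756694) read 116, 118 and 119 FPKM in WT samples and 134, 134 and 135 FPKM in Gsdmd-/- samples, with the groups apart. Its log2 change was 0.18 as deposited (SE 0.0268, limma adjusted p = 5.01e-05), -0.04 in TPM (limma adjusted p = 0.282), 0.01 length-adjusted (limma adjusted p = 0.672) and -0.14 with the median transcript (limma adjusted p = 0.000422). It passed higher as deposited and lower with the median transcript, and did not pass on either of the others.

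Irf1 (chromosome 11, 53770014 to 53778374) read 448, 443 and 443 FPKM in WT samples and 454, 454 and 468 FPKM in Gsdmd-/- samples. The groups were apart, but the gene did not pass (log2 change 0.05, SE 0.0244, limma adjusted p = 0.111). On other scales it fell, by 0.18 in TPM, 0.24 after quantile normalization, 0.19 length-adjusted and 0.34 with the median transcript (limma adjusted p = 2.46e-05, 1.45e-05, 3e-05 and 5.29e-07).

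Irf9 (chromosome 14, 55603985 to 55610030) read 56.7, 54.8 and 57.3 FPKM in WT samples and 56.8, 56.5 and 57.6 FPKM in Gsdmd-/- samples, and the groups overlapped. Its log2 change was 0.02 (SE 0.0325, limma adjusted p = 0.647). It was -0.20 in TPM (limma adjusted p = 0.000202) and -0.05 length-adjusted (limma adjusted p = 0.127).

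**Figure D2:**
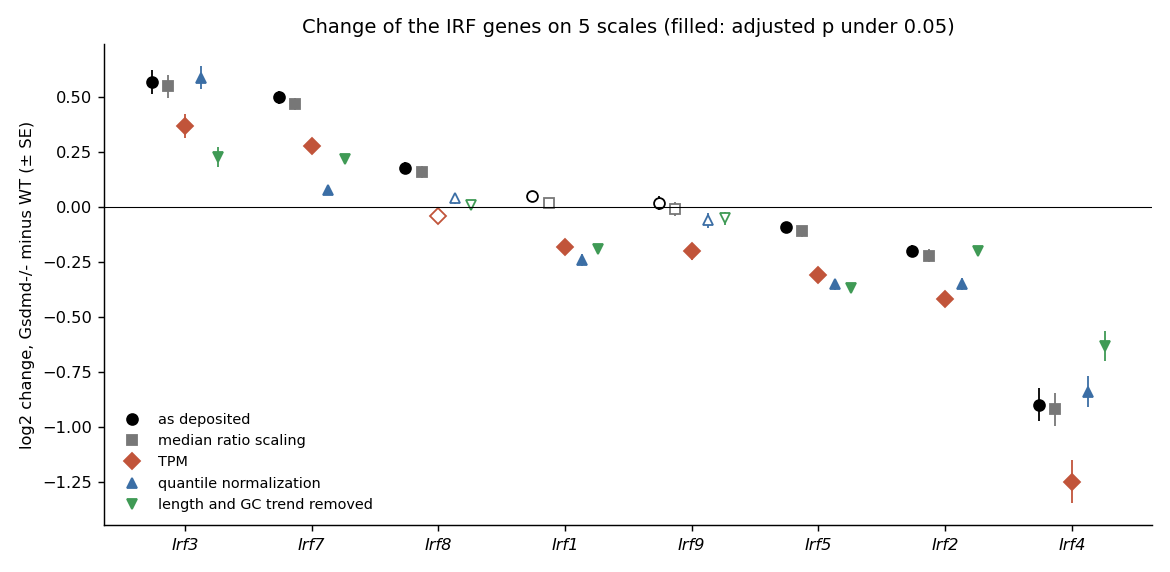
Log2 change of each IRF gene, Gsdmd-/- minus WT with its SE (vertical axis), on 5 scales, with genes ordered by the deposited change and filled symbols for an adjusted p under 0.05. Irf3 and Irf7 stay above 0 and Irf5, Irf2 and Irf4 below 0 on all 5, while Irf8, Irf1 and Irf9 fall on both sides.

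In TPM, 2 IRF genes rose and 5 fell, where 76% of all tested genes passed, 25% higher and 51% lower. Length-adjusted, 2 rose and 4 fell, where 61.4% of all tested genes passed, 29.2% higher and 32.2% lower. The members other than Irf4 have longest transcripts of 2031 to 2959 bases. Among 2230 tested genes of 2000 to 3000 bases, a range picked after the values were seen, the log2 change had a median of 0.11 and quartiles of -0.11 and 0.32. Irf3 and Irf7 lay above the upper quartile, Irf2 below the lower, and Irf1, Irf5, Irf8 and Irf9 between. For Irf4, at 4764 bases, 1666 genes of 4000 to 5500 bases had a median of -0.24 and quartiles of -0.51 and 0.02, and it lay below the lower quartile.

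**Figure D3:**
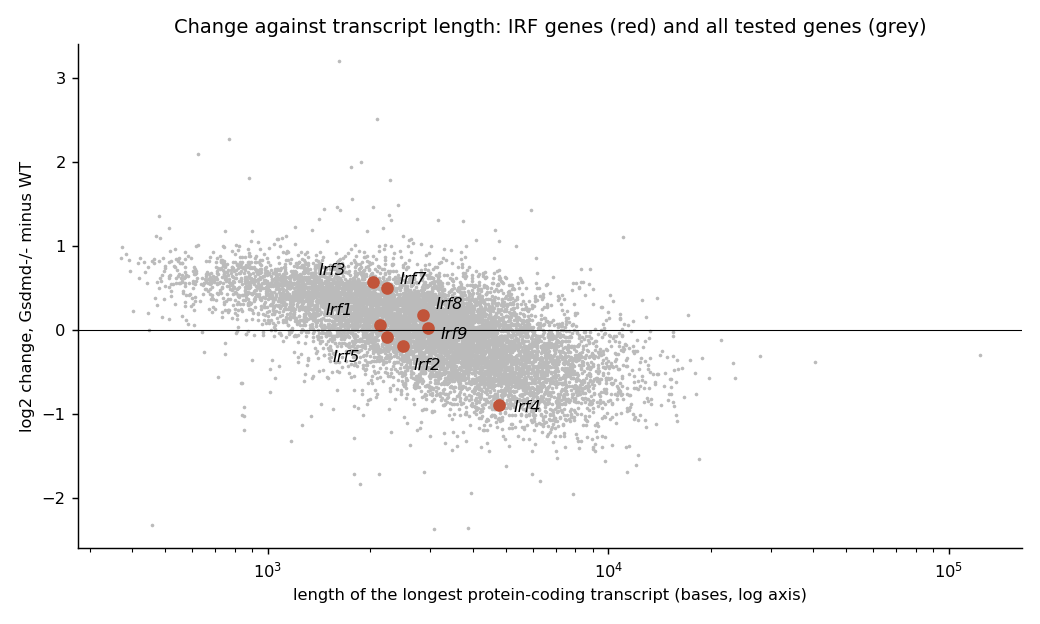
Log2 change, Gsdmd-/- minus WT (vertical axis), against the length of the longest protein-coding transcript in bases (horizontal log axis), for tested genes (grey) and the 8 IRF genes (red). The cloud slopes down with length, Irf3 and Irf7 lie above Irf1 and Irf5 at similar lengths, and Irf4 lies low among longer transcripts.

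Per length, the order of levels in WT was Irf7, Irf1, Irf5, Irf2, Irf8, Irf9, Irf3 and Irf4. In Gsdmd-/- samples Irf8 stood above Irf2 and the order was otherwise that of WT. Samples of neighbours in the order did not overlap in either group. The Irf8 to Irf2 ratio, singled out after its values were seen, was 0.875, 0.871 and 0.907 in WT and 1.14, 1.15 and 1.17 in Gsdmd-/- samples. Its log2 change was 0.39 as deposited and 0.21 length-adjusted.

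The 8 genes summed to 1878 ± 27.4 FPKM in WT and 2182 ± 11.7 FPKM in Gsdmd-/- samples (SD, n = 3 each), but to 3913 ± 22 and 3897 ± 31.4 TPM. Irf7 made up 39.2%, 40.3% and 39.2% of the sum in WT samples and 48.3%, 48.6% and 47.3% in Gsdmd-/- samples. The share of Irf5 was 19.4% ± 0.0883 in WT and 15.7% ± 0.158 in Gsdmd-/- samples, and that of Irf1 23.7% ± 0.419 and 21% ± 0.489. Shares add to one total, so a larger share of Irf7 lowers the others.

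**Figure D4:**
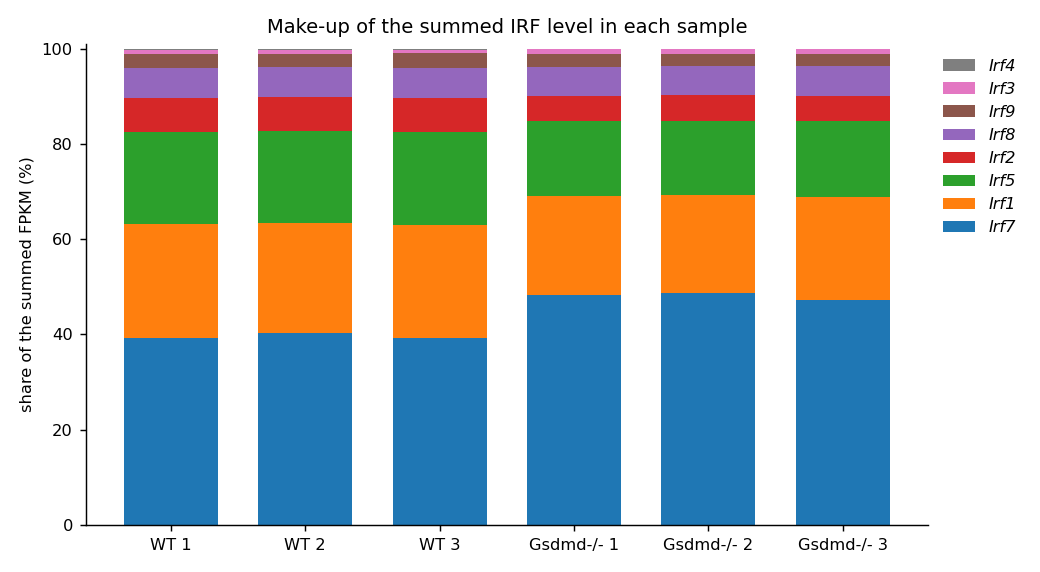
Share of each IRF gene in the summed FPKM of the 8 genes (vertical axis, percent) in each of 3 WT and 3 Gsdmd-/- samples. Irf7 takes 39.2% to 40.3% in WT and 47.3% to 48.6% in Gsdmd-/- samples, and Irf4 is too small to see.

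Ratios inside a library do not depend on scaling between libraries, and 4 were compared. Irf1 to Irf2, a pair that can compete for DNA, was 3.34 ± 0.0648 in WT and 3.95 ± 0.1 in Gsdmd-/- samples, and Irf7 to Irf3 was 49.9 ± 1.32 and 46.4 ± 2.07. Irf5 to Irf4, factors with opposed roles in macrophage activation, was 116 ± 8.23 and 284 ± 33.9, and Irf8 to Irf4 was 37.5 ± 2.7 and 111 ± 13 (SD, n = 3 each). The groups were apart for all 4, at an exact two-sided permutation p of 0.1 each and 0.1 adjusted over the 4, the smallest that 3 samples against 3 allow.

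Length adjustment took the log2 change of Irf1 to Irf2 from 0.24 to 0.01 (exact permutation p = 1) and that of Irf7 to Irf3 from -0.08 to -0.01 (exact permutation p = 0.8), both computed with a pseudocount of 1. Irf5 to Irf4 went from 0.82 to 0.25 and Irf8 to Irf4 from 1.09 to 0.64, each still at the smallest exact p of 0.1. With the longest transcript the ratios to Irf4 thus kept their direction, and the other ratios went close to 0. Ratios were not computed with the median transcript. There the log2 changes of Irf5, Irf8 and Irf4 were -0.42, -0.14 and -0.51, so Irf5 and Irf4 fell to a similar extent. Those of Irf7 and Irf3 were 0.23 and 0.16, so Irf7 rose more, the opposite order to that as deposited. Irf1 and Irf2 were both at -0.34.

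Genes around the IRFs were read from 11 lists, chosen with earlier results of these data known. Of their 72 genes that are no IRF, 65 were tested, and 34 rose and 25 fell, with a median log2 change of 0.17 beside 0.03 over all tested genes, of which 40.6% rose and 36.9% fell. In TPM 20 rose and 33 fell (median -0.06), beside 25% and 51% of all tested genes (median -0.17). Length-adjusted 21 rose and 33 fell (median -0.12), beside 29.2% and 32.2% of all tested genes (median -0.01). The counts per list below stand against these same shares.

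Interferons are products and inducers of IRFs. Of 9 tested interferon and receptor genes, 6 rose and 2 fell, and length-adjusted 4 rose and 4 fell. Ifnb1, the interferon beta gene that IRF3 and IRF7 switch on, read 87.4, 80.9 and 86.6 FPKM in WT samples and 197.6, 189.1 and 191 FPKM in Gsdmd-/- samples. Its log2 change of 1.17 (limma adjusted p = 4.05e-10) was 0.86 length-adjusted and 1.15 with the median transcript. Ifna2 rose from 31.2 ± 0.127 to 50.7 ± 0.873 FPKM and Ifna4 from 38.3 ± 0.505 to 60.5 ± 0.743 FPKM (SD, n = 3 each), although interferon alpha genes are near-identical copies among which reads may have been split. Length-adjusted, their log2 changes of 0.68 and 0.65 were 0.44 and 0.10 (limma adjusted p = 3.3e-07 and 0.0272). Ifna1 and Ifna5, named as the other interferon alpha genes tested, rose by 0.28 and 0.52 as deposited. Length-adjusted they were at -0.37 and -0.13 (limma adjusted p = 0.000351 and 0.182). Ifng did not exceed 0.21 FPKM.

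Of the 14 adaptors and kinases that activate IRFs, 3 rose (Myd88, Tmem173 and Ikbke) and 9 fell, 2 rose and 8 fell length-adjusted, and 1 rose and 12 fell in TPM. Myd88, the adaptor of Toll-like receptors, had a log2 change of 0.09 as deposited, -0.20 length-adjusted and -0.13 in TPM (limma adjusted p = 0.0189, 1.93e-05 and 0.000454), and did not pass without WT replicate 1, WT replicate 3 or Gsdmd-/- replicate 2 (limma adjusted p = 0.0695, 0.0835 and 0.0793). Tmem173, the gene of the DNA-sensing adaptor STING, was at 0.24 as deposited, 0.09 length-adjusted and 0.02 in TPM, where it did not pass (limma adjusted p = 0.542). Tank, a scaffold of TBK1, fell from 84.2 ± 1.67 to 51.3 ± 2.03 FPKM, Azi2, another TBK1 adaptor, from 73.1 ± 0.624 to 50.7 ± 0.764 FPKM, and Tbk1 from 55.4 ± 2.46 to 38 ± 2.04 FPKM (SD, n = 3 each). Their log2 changes of -0.70, -0.52 and -0.53 were -0.44, -0.28 and -0.41 length-adjusted. Ikbke, the gene of IKK-epsilon, named because few members rose, had a log2 change of 0.32, and 0.21 length-adjusted. The genes of the kinases that phosphorylate IRF3 and IRF7 thus moved in opposite directions.

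Of 9 partners and corepressors of IRFs, 5 rose and 4 fell, and length-adjusted 2 rose and 4 fell. Batf2, which pairs with IRF1 in activated macrophages, rose from 170 ± 5.31 to 289 ± 6.49 FPKM, and Batf3, a dendritic cell factor, from 7.48 ± 0.41 to 14.8 ± 0.53 FPKM (SD, n = 3 each). Their log2 changes of 0.77 and 0.90 were 0.27 and 0.18 length-adjusted (limma adjusted p = 1.08e-06 and 0.00385). Of 5 genes listed as regulators of IRF stability or activation, 2 rose and 3 fell. Rbck1, part of a ubiquitin ligase complex, rose by 0.46, and Tnfaip3 and Cyld, which remove ubiquitin chains, fell by 0.47 and 0.73. Length-adjusted the 3 log2 changes were 0.13, -0.28 and -0.15, and Cyld was at -0.08 with the median transcript (limma adjusted p = 0.214).

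**Figure D5:**
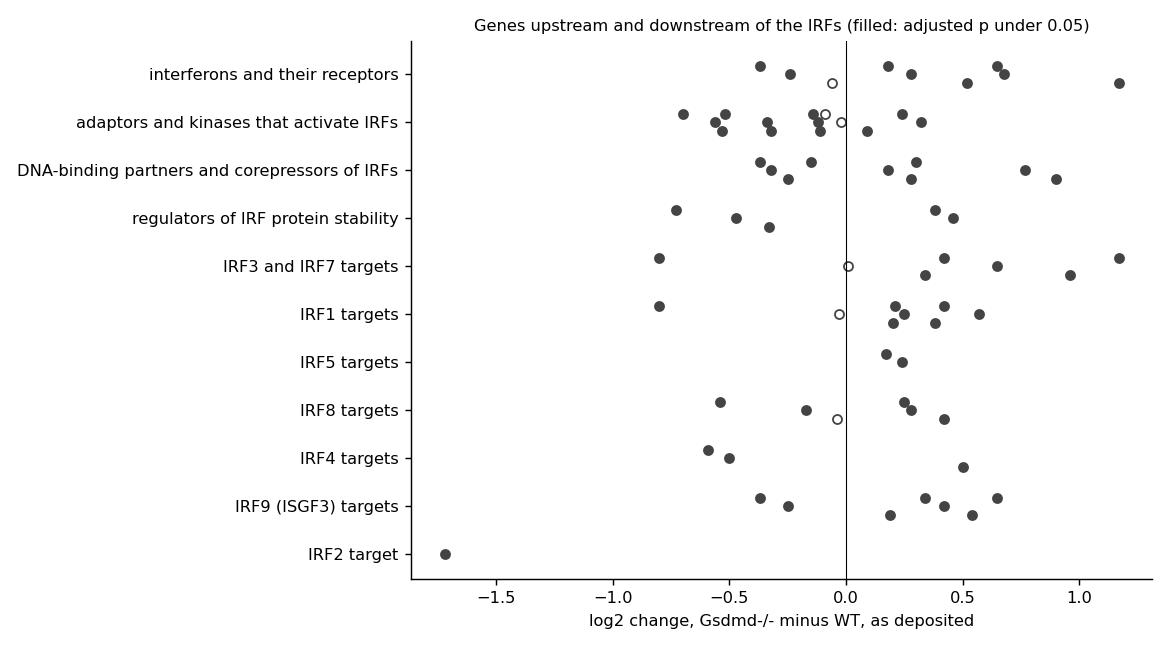
Log2 change, Gsdmd-/- minus WT as deposited (horizontal axis), of each tested gene in lists of genes upstream and downstream of the IRFs (rows), IRF genes left out, with filled circles for an adjusted p under 0.05. Most lists have points on both sides of 0, with Ifnb1 highest at 1.17 and Gsdmd lowest at -1.72.

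Of 7 targets of IRF3 and IRF7, 5 rose and 1 fell, and length-adjusted 4 rose and 3 fell. The antiviral gene Ifit3 rose from 1149 ± 31 to 1801 ± 14.9 FPKM while Ifit2 fell from 1383 ± 47.1 to 791 ± 23 FPKM (SD, n = 3 each). Length-adjusted their log2 changes of 0.65 and -0.80 were 0.48 and -0.49, and Ifit genes have similar copies among which reads may have been split.

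Of 8 tested targets of IRF9 in ISGF3, 6 rose, Irf7 among them, and 2 fell, and length-adjusted 4 rose and 3 fell. Oas1a, an antiviral synthetase gene with similar copies, rose from 261 ± 3.36 to 380 ± 6.32 FPKM (SD, n = 3 each), by 0.54 on the log2 scale and 0.28 length-adjusted. Isg15, a ubiquitin-like modifier gene, rose by 0.42 as deposited and fell by 0.14 length-adjusted (limma adjusted p = 5.82e-08 and 8.43e-05). With the median transcript Isg15 was at 0.12, so its sign after length adjustment depended on the transcript used.

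Of 8 tested targets of IRF1, 6 rose and 1 fell, and length-adjusted 4 rose and 3 fell. Cxcl9, a chemokine gene induced by interferon gamma, rose from 66 ± 0.926 to 98.4 ± 1.82 FPKM (SD, n = 3 each), by 0.57 on the log2 scale and 0.73 length-adjusted. Gbp2, a guanylate-binding protein gene with similar copies, rose by 0.42, but was at -0.01 after quantile normalization. Psmb9, an immunoproteasome subunit gene, rose by 0.38 as deposited and fell by 0.09 length-adjusted.

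Of 5 IRF5 targets only Tnf and Il6 were tested, since Il12a, Il12b and Il23a stayed under 1 FPKM. Tnf rose by 0.17 as deposited and fell by 0.15 length-adjusted (limma adjusted p = 5.58e-05 and 3.26e-05). Il6 rose by 0.24 as deposited and 0.42 length-adjusted, and was at 0.03 in TPM (limma adjusted p = 0.648).

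Of 6 tested IRF8 targets, 3 rose and 2 fell, and length-adjusted 1 rose and 4 fell. Cybb, a phagocyte oxidase subunit gene, fell from 313 ± 8.79 to 215 ± 7.27 FPKM (SD, n = 3 each), a log2 change of -0.54, and -0.12 length-adjusted. Cst3, a protease inhibitor gene, rose by 0.42 as deposited and fell by 0.22 length-adjusted.

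Of 3 tested IRF4 targets, 1 rose and 2 fell. Mrc1, the mannose receptor gene, fell from 87.8 ± 3.11 to 58.1 ± 2.79 FPKM, and Prdm1, a repressor gene, from 5.37 ± 0.205 to 3.51 ± 0.161 FPKM (SD, n = 3 each). Length-adjusted both were at -0.14, where Mrc1 passed and Prdm1 did not (limma adjusted p = 0.0017 and 0.0513). With the median transcript Mrc1 was at -0.05 and did not pass, while Prdm1 was at -0.17 and passed (limma adjusted p = 0.15 and 0.0215). Arg1, an enzyme gene of alternatively activated macrophages, rose to 2.65 ± 0.211 FPKM, a log2 change of 0.50, and 0.27 length-adjusted (limma adjusted p = 0.000566 and 0.038).

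Over the 6 samples, genes with patterns most like Irf3 included Ndufa12 of respiratory complex I (Pearson r 0.9998) and the translation factor gene Eif2b1 (r 0.9985). For Irf4 they were the PI3 kinase subunit gene Pik3r5 (r 0.9996), the protease gene Adam10 (r 0.9995) and Cggbp1 (r 0.9994). Such values were common between groups so far apart: 285 of 5002 genes reached 0.99 with Irf3 and 622 of 5003 with Irf4.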

How the data were processed

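RNA of 6 samples was sequenced on a BGISEQ-500, per the labels' protocols. The submitters' processing notes list Bowtie2 2.2.5 and GRCm38.p6; quantifier, annotation and strand use were not stated. The values the authors deposited carry no unit and were read as FPKM, since library sums differ and low values lie on steps set by gene length. Depth was estimated from these steps, by a search refined after a first version failed for 2 libraries, and is approximate.

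Genes with at least 1 FPKM in at least 3 samples were tested with limma 3.58.1 (R 4.3.3; trend and robust) on log2(FPKM + 1), two-sided, with Benjamini-Hochberg adjustment. Transcript length and GC come from GENCODE M21, and their trend was taken out per sample with splines of 5 degrees of freedom each. The median transcript length was tried first and held a weaker trend (rho -0.511, 38% of the variance) than earlier results of these data had shown. The longest transcript then replaced it, and the median is kept as an alternative added after seeing the data. The fits were also run on simulated data with few changed genes and either no trend or a trend on length alone. Those runs do not show how well the adjustment works on these data. Symbols turned into dates, 25 in all, were restored by gene ID.

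The 8 genes and the lists were chosen with earlier results of these data known. Named genes are the 8, up to 3 per list with the smallest p, Ifnb1, Gsdmd, and the 3 genes most correlated with the member that rose most and the one that fell most, among genes at or above the median level; some items the rule picks are not reported here. Other alternatives were pseudocounts, filters, TPM, median ratio scaling, quantile normalization, plain limma, a replicate block and each sample left out.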

Additional observations from a re-analysis of the deposited data

How the results depend on the processing

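The counts of 3 IRF genes higher and 3 lower stayed within 1.5 times in all alternatives except for those lower in TPM and length-adjusted with the median transcript, 5 in each. In TPM 2498 of all genes rose, against 4059 as deposited. Pathway genes that rose numbered 34 as deposited, 20 in TPM, and 21 length-adjusted with either transcript. The signs given next leave out Ifna1, Ifna5 and the cell type markers other than Bst2, Tcf4 and Cd4. Among the other genes named, log2 changes of opposite sign to the deposited ones were, length-adjusted, Irf1 (-0.19), Myd88 (-0.20), Tnpo3 (0.13), Bst2 (-0.04), Tcf4 (0.48), Irf9 (-0.05), Psmb9 (-0.09), Tnf (-0.15), Cst3 (-0.22), Isg15 (-0.14) and Cggbp1 (0.02). With the median transcript, they were Irf1 (-0.34), Myd88 (-0.34), Tnpo3 (0.24), Irf8 (-0.14), Psmb9 (-0.01), Tnf (-0.02), Cst3 (-0.05) and Cggbp1 (0.12). In TPM, they were Irf1 (-0.18), Myd88 (-0.13), Irf8 (-0.04), Irf9 (-0.20), and Tnf (-0.06), and after quantile normalization Irf1 (-0.24), Myd88 (-0.07), Irf9 (-0.06), Gbp2 (-0.01), Tnf (-0.18), Cst3 (-0.01) and Isg15 (-0.01). Irf9 was also at -0.01 with median ratio scaling and ranged from 0.00 without WT replicate 2 to 0.03 without WT replicate 3. The cause was not tested. Leaving out any of the 6 samples gave 3 IRF genes higher and 3 lower. A filter of 5 FPKM gave no value for Irf4. Deviations of same-numbered samples correlated at -0.082, 0.132 and 0.014, and those of samples with unlike numbers at -0.166 to 0.16. With 3 samples a group, these values cannot tell whether same-numbered samples share more than a number. With the replicate block 3 IRF genes rose and 3 fell, 4095 of all genes rose and 3706 fell, and 34 pathway genes rose and 24 fell. For the 4 ratios the block cannot change the log2 changes of 0.24, -0.11, 1.29 and 1.56, since each number occurs once per group. Flipping the signs of their 3 paired differences gave an exact p of 0.25 each, the smallest that 3 pairs allow. Depth limits Irf4 most, at an estimated 103 fragments in its lowest sample.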
